A study of Drosophila melanogaster with 3 samples.

Results

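Weak promoter summits are the places near the starts of protein-coding genes where the pooled peak list holds a peak that the authors' optimal set leaves out. A summit, the position of highest signal within a peak, was taken when it lay within 500 bp of a transcription start site (TSS) of a protein-coding transcript and more than 500 bp from every summit of the optimal set. This rule found 5382 of the 27271 pooled peaks. They were set against the 2008 optimal summits within 500 bp of a TSS, out of 3844 optimal peaks. The authors made the optimal set with IDR (irreproducible discovery rate), which scores how reproducibly peaks are ranked, and it was exactly the 3844 strongest peaks of the pooled list. The weak summits were thus chosen by their pooled signal and their distance from a TSS, and their signal and replicate support are given as descriptions, with no test.

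The data are ChIP-seq, the sequencing of chromatin fragments bound by an antibody, and come from whole embryos of Drosophila melanogaster of mixed sex, 0 to 24 hours old. All samples belong to 1 group: 3 biological replicates of 1 transgenic line whose CG12942 protein carries green fluorescent protein (GFP) at its C terminus, precipitated with an antibody against GFP. The annotation lists CG12942 under this symbol alone. Whole embryos mix all cell types and stages, so a summit bound in few cells and a summit bound weakly in many cannot be told apart. No embryos without the fusion protein were analysed here. The depth of the libraries is not given in the sources used here.

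A ChIP-seq peak list orders sites by enrichment over a control, and its lower end mixes weakly bound sites with fluctuations of the background. Fly promoters that serve genes in most cells often carry the DRE (the DNA replication-related element, bound by DREF and BEAF-32) or motif 1 (bound by M1BP), whereas many promoters of regulated genes carry a TATA box or an initiator. Many fly genes also lie head to head, with the starts of 2 divergent genes close together, and such shared promoters are frequent sites of insulator and housekeeping factors.

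The windows below, 101 bp centred on a weak summit, show what these sites look like at both ends of the strength range. They were read from the dm6 genome in the direction of the nearest gene, and were taken from the windows that touch no annotated exon, 2443 of the 5382. Windows on 1 of the 6 arms were not considered for printing. Capitals mark a DRE in the first pair and motif 1 in the second pair, the strongest weak summits so eligible with each motif and with a summit in all 3 replicate lists. The third pair holds the strongest eligible weak summits of all, and the last pair the weakest.
RpL10Ab (chr3L:11822745-11822845, plus strand): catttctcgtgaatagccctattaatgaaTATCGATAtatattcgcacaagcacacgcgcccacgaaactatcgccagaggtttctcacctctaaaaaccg
Nak (chr2L:18968776-18968876, minus strand): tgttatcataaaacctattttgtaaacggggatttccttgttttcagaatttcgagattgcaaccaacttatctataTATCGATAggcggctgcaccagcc
CG15356 (chr2L:1980766-1980866, minus strand): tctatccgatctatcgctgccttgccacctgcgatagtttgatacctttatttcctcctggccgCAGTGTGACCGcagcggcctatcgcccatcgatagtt
c12.1 (chrX:9319226-9319326, minus strand): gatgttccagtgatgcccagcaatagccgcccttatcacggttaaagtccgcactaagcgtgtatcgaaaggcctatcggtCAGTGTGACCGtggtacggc
ssh (chr3R:24945013-24945113, minus strand): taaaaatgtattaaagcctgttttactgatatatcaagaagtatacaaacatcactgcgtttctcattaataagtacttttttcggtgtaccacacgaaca
RabGGTb (chr2L:2879003-2879103, plus strand): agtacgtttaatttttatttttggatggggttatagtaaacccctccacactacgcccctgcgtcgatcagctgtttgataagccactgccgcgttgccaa
Calx (chr3R:20978062-20978162, plus strand): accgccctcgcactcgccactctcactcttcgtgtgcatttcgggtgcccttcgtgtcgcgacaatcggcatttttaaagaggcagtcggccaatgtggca
CG14431 (chrX:6908116-6908216, plus strand): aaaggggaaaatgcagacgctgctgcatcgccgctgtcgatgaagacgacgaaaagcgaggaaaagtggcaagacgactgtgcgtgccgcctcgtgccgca

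The window at RpL10Ab, which encodes a protein of the large ribosomal subunit, was 43.6% G and C, and its summit lay 56 bp upstream of the TSS. The window at Nak, which encodes a kinase named for Numb, was 38.6% G and C. The window at ssh, which encodes the cofilin phosphatase Slingshot, was the richest in A and T of the 8, with 30.7% G and C. The 2 weakest windows, at the sodium/calcium exchanger gene Calx and at CG14431, were 57.4% and 58.4% G and C. Neither of those 2 held a DRE or motif 1.

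The weak summits ran without a gap from just under the optimal set to the end of the pooled list. Their pooled signal, the enrichment value written by the authors' peak caller, ranged from 19.2 to 78.8 with a median of 31.8, against 78.9 to 1897 and a median of 134 at optimal promoter summits. Their ranks in the pooled list ran from 3847 to 27266. Of the weak summits, 1214 (22.6%) had a deposited q value of 0.01 or lower, as did 100% of the optimal promoter summits.

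At the limit between the sets, the signal changed by less than 1 unit. The strongest weak summits were those of NFAT, which encodes a transcription factor, at 78.82 and of ssh at 78.70. The weakest optimal promoter summits, at the Hippo pathway gene sav and at Mccc1, both had 78.89. At the limit of distance from a TSS, the summits of Asap and CG3635 lay 500 bp away and those of Papss and Osi14, left out, lay 501 bp away. At the limit of distance from an optimal summit, CG14860 and RpL27A lay 501 bp away, and CG1416, at 493 bp, and CG11961, at 352 bp, were left out. In all, 394 further promoter summits of the pooled list lay within 500 bp of an optimal summit without being in the optimal set and are not counted among the weak summits.

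Most weak summits lay more than 5000 bp from an optimal one, with no background distance computed for comparison. Their median distance to the nearest optimal summit was 7543 bp, 3325 (61.8%) lay more than 5000 bp away and 393 (7.30%) lay between 500 and 1000 bp away. Another weak summit lay within 500 bp of 1266 of them (23.5%), so neighbouring weak summits are not independent.

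Promoters held more of the weak signal than their length gives. Of the 22738 pooled summits more than 500 bp from every optimal summit, 23.7% were at promoters, whereas bases within 500 bp of a TSS made up 10.4% of the sequence there. Among optimal summits, 52.2% were at promoters. When the 22738 summits were divided by pooled signal into 5 groups of equal size, the promoter share was 36.9%, 27.7%, 20.3%, 18.2% and 15.2% from the strongest to the weakest.

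The 3 replicates did not hold equally many promoter peaks. Outside the optimal set, promoters took 25.5% of the peaks in the list of replicate 1, 19.5% in that of replicate 2 and 17.6% in that of replicate 3. A summit of the replicate list lay within 200 bp of 4033 weak summits (74.9%) in replicate 1, 3242 (60.2%) in replicate 2 and 2890 (53.7%) in replicate 3. For the 17356 pooled summits away from both promoters and the optimal set, the shares were close to each other, at 57.2%, 53.9% and 52.4%. Replicate 1 thus stood apart at promoters. Without it, 1877 weak summits were matched in both of the other lists, and without replicate 3, 2406 were matched in replicates 1 and 2.

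Of the 5382 weak summits, 1432 (26.6%) were matched in all 3 replicate lists, 2116 (39.3%) in 2, 1637 (30.4%) in 1 and 197 (3.66%) in none. Each was compared with its nearest replicate summit, so 1 replicate summit could match more than 1 weak summit. Of the 2008 optimal promoter summits, 1966 (97.9%) were matched in all 3. Of promoter bases outside the optimal regions, 17.7%, 14.0% and 11.7% had a summit of replicate 1, 2 and 3 no more than 200 bp away. For 3.29% of these bases this was true of all 3 lists at once. The bases around the weak summits are included, so 3.29% is not a level for chance overlap, and none was computed. Weak summits matched in replicate 1 alone numbered 930, against 391 in replicate 2 alone and 316 in replicate 3 alone. Where a weak summit was matched, the replicate summit lay a median of 25, 31 and 31 bp away in replicates 1, 2 and 3, and its median rank there was 9788, 10127 and 9739.

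Support fell steadily with strength. The weak summits were divided by pooled signal into 5 groups of 1076 or 1077, called strength groups 1 (50.6 to 78.8) to 5 (19.2 to 22.9). The share matched in all replicates was 78.8%, 34.9%, 11.9%, 4.93% and 2.42% from group 1 to group 5. Pooled summits of the same signal ranges that lay away from promoters had shares of 83.8%, 45.5%, 13.0%, 3.76% and 0.961%. These shares are a description with no test, since the pooled signal is made from the same 3 libraries.

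**Figure D1:**
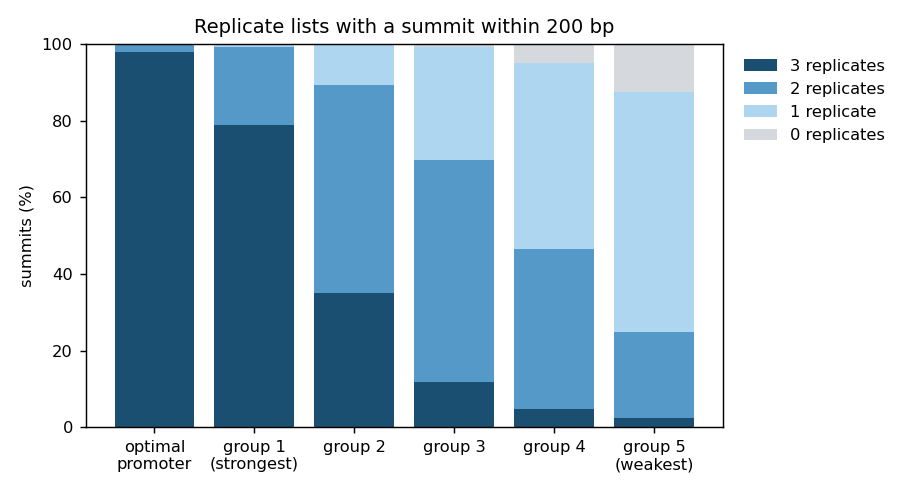
Share of summits (y axis, %) with a summit within 200 bp in 3, 2, 1 or 0 of the replicate lists, for optimal promoter summits and for the 5 strength groups of weak promoter summits. The part found in all 3 replicates falls from 97.9% at optimal promoter summits to 78.8% in group 1 and 2.42% in group 5.

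The strongest weak summits with a match in all replicates lay at genes of many functions. The NFAT summit (pooled signal 78.82) ranked 2636, 5500 and 12535 in replicates 1, 2 and 3. The ssh summit, shared head to head with the NAD synthesis gene Nmnat, ranked 2378, 4642 and 6393. The summit at mmy, which encodes the pyrophosphorylase that makes UDP-N-acetylglucosamine, ranked 2932, 6832 and 4703. In each of these 3, replicate 1 gave the best rank.

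Other summits among the 20 strongest were ranked best by another replicate. RabGGTb, which encodes a subunit of the Rab geranylgeranyl transferase, ranked 6857, 2521 and 5098. The summit at HtrA2, a mitochondrial protease gene head to head with the mitochondrial ribosomal protein gene mRpL11, lay 109 bp downstream of the HtrA2 start. It ranked 23645, 3125 and 2508. The summit between Taf6, which encodes a subunit of the general transcription factor TFIID, and the trithorax group gene ash1 ranked 6682, 17518 and 2790. These last 2 were high in 2 replicates and deep in the list of the remaining one.

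The remaining summits of these 20 lay at PlexB, a semaphorin receptor gene on chromosome 4, at the effector caspase gene Drice with Rnb, at Polr1D with the translational repressor gene brat, at CG1307 with twr, at CG5446 with Trm1, at ttm50 with CG2712 and at CG34133 with the zinc transporter family gene Zip99C. Single promoters in this group were those of CG13096, CG18766, CG14464, the neuronal RNA-binding protein gene fne, RpL10Ab, the cytochrome P450 reductase gene Cpr and loqs, which encodes a partner of Dicer. PlexB ranked 5823, 3777 and 3995, and CG34133 ranked 5274, 3803 and 4559, so both were near the same place in every list. At the other end, the 5 weakest summits were at CG10508, CG14419, CG4230, Tsp, which encodes thrombospondin, and CG14431. The CG10508 and CG14419 summits were matched in no replicate list, those of Tsp and CG14431 in 1 and that of CG4230 in 2. This CG14431 summit lay 102 bp downstream of the start. The CG14431 window printed above belongs to another weak summit, 111 bp upstream, which was matched by the same summit of replicate 3.

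Weak summits lay at head-to-head promoters less often than optimal ones. A summit was counted there when it lay within 500 bp of the starts of 2 divergent genes no more than 500 bp apart. This held for 774 weak summits (14.4%, 95% Wilson interval 13.5% to 15.3%) and for 760 optimal promoter summits (37.8%, 35.8% to 39.99%). Of all promoter bases outside the optimal regions, 6.74% were in such a place. The share fell from 24.5% in strength group 1 through 19.1%, 11.4% and 9.76% to 7.16% in group 5, and was 32.5% among the 502 weakest optimal promoter summits.

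The same difference was present in each replicate's own list, where 1 optimal set defined the optimal class for all 3 lists. That set was made from the same libraries, so the optimal shares largely count the same sites and the 3 differences are not independent. This also holds for the upstream, GC and motif comparisons below. Promoter peaks of a replicate list more than 500 bp from every optimal summit were head to head in 13.8%, 12.8% and 13.1% in replicates 1, 2 and 3, and those within 500 bp of an optimal summit in 37.4%, 37.6% and 37.6%. The means were 13.2% ± 0.539 (SD, n = 3) and 37.5% ± 0.131. The difference was −24.3 percentage points ± 0.669, with the same sign in 3 of 3 replicates. A two-sided exact permutation of these signs gave p = 0.25, the smallest that 3 replicates allow. Adjusted by Benjamini-Hochberg over the 16 comparisons of this kind, every exact permutation p of 0.25 became 0.308. The groups of replicate values did not overlap. Without the list of replicate 1, but with the optimal set unchanged, the mean difference was −24.7 points. Its size depended on how a pair was defined: with starts at most 250 bp apart it was −9.51 points, of the same sign.

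**Figure D2:**
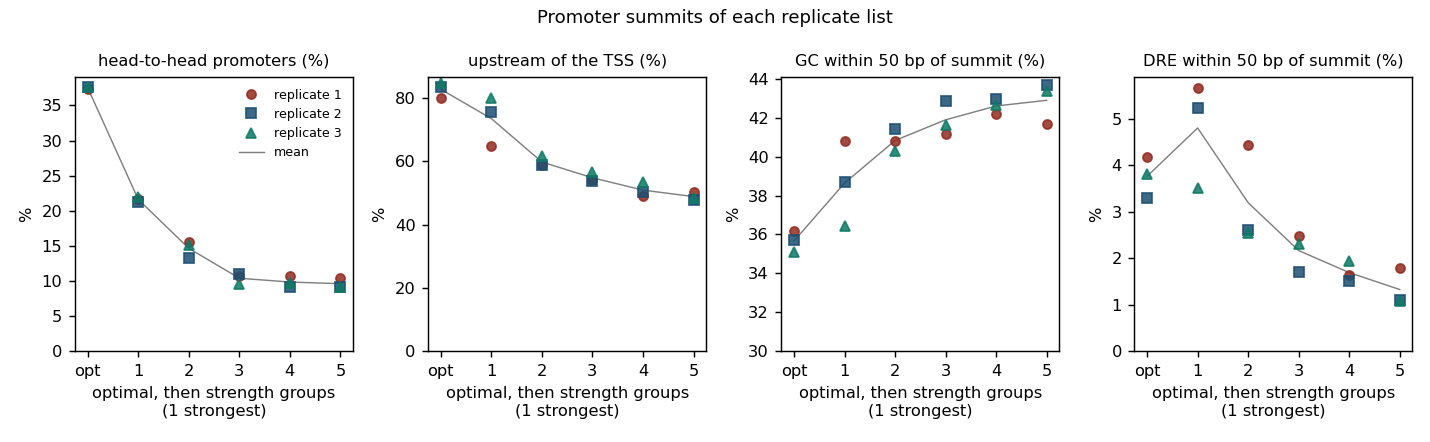
Share of promoter summits at head-to-head promoters, share upstream of the TSS, mean GC content and share with a DRE (y axes, %), in each replicate's own list, for peaks at the optimal set (opt) and for the 5 strength groups of the remaining promoter peaks of that list (x axis, 1 strongest). Points are the 3 replicates and the line is their mean. The head-to-head mean falls from 37.5% to 21.6% in group 1 and 9.62% in group 5.

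Weak summits were also less often upstream of the TSS. Of them, 3313 (61.6%, interval 60.2% to 62.8%) lay upstream of the nearest TSS, against 1740 optimal promoter summits (86.7%, 85.1% to 88.1%) and 44.6% of promoter bases. The share was 79.1%, 65.6%, 58.9%, 51.7% and 52.5% from group 1 to group 5. In the replicates' own lists it was 57.6% ± 2.32 (SD, n = 3) outside and 82.8% ± 2.40 at the optimal set, a difference of −25.2 percentage points ± 0.924 with the same sign in 3 of 3 replicates (exact sign permutation p = 0.25). In the replicates' group 1, replicate 1 had 64.9% upstream, below the 75.4% and 80.1% of replicates 2 and 3.

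The distribution moved toward the TSS and then flattened. The median position was 44 bp upstream (written −44) for weak summits and −106 for optimal ones, and by strength group it was −78, −50, −36, −12 and −9. Within 50 bp of a TSS lay 1239 weak summits (23.0%) and 368 optimal ones (18.3%). In groups 1 and 2, 27.7% and 28.3% lay that close, more than among optimal promoter summits, and 17.3% did in group 5.

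**Figure D3:**
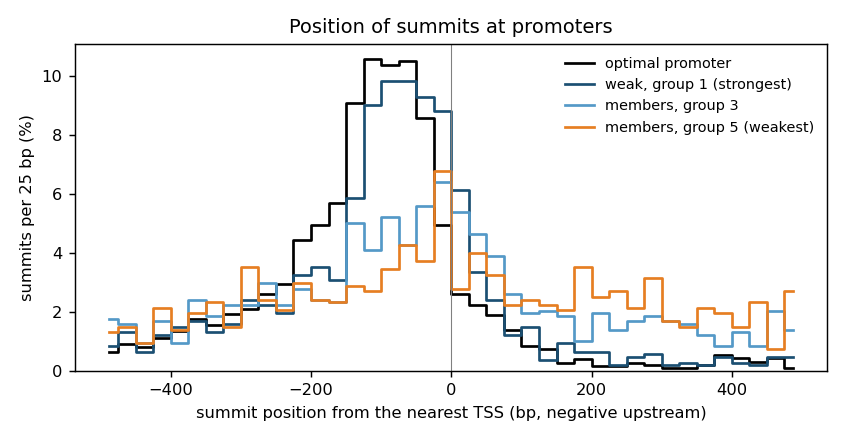
Position of summits relative to the nearest TSS (x axis, bp, negative upstream) as the percentage of summits in each 25 bp step (y axis). Optimal promoter summits and group 1 lie mostly upstream, with medians of −106 and −78, whereas groups 3 and 5 spread over both sides, with medians of −36 and −9.

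Where the summit falls in the gene model changed along with this. Outside any annotated gene lay 38.2% of weak and 59.5% of optimal promoter summits, and 23.3% and 22.7% lay in introns. Exons outside coding sequence held 29.5% of weak and 17.4% of optimal promoter summits. Coding exons held 487 weak summits (9.05%) and 9 optimal ones (0.448%). The coding share rose from 1.30% in group 1 through 3.996%, 9.38% and 13.4% to 17.2% in group 5. These shares were counted in the pooled and optimal lists only and were not tested across replicates.

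The base composition at the summit differed in the same order. Within 50 bp of the summit, G and C made up 40.7% at weak summits (SD 10.7 over 5382 summits) and 34.7% at optimal promoter summits (SD 9.71 over 2008), against 42.9% over promoter bases. Relative to flanks 400 bp to either side, the difference (summit minus flank) was −1.86 percentage points at weak and −10.5 at optimal promoter summits. It was −6.15, −2.97, −1.10, −0.056 and 0.993 points from group 1 to group 5. Pooled summits of the same signal ranges away from promoters had −8.08, −5.28, −1.12, 0.262 and 0.780 points, so this trend was not particular to promoters. In the replicates' own lists, GC was 41.4% ± 0.525 (SD, n = 3) outside and 35.7% ± 0.551 at the optimal set, higher outside in 3 of 3 by 5.71 points ± 0.526 (exact sign permutation p = 0.25). Strength, position and composition moved together, and the part of fragment composition in peak strength was not tested.

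**Figure D4:**
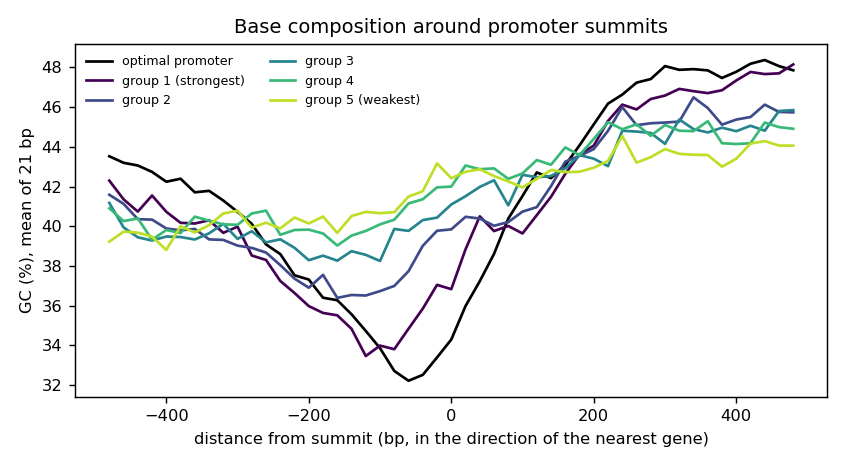
Mean GC content (y axis, %, over 21 bp) against distance from the summit in the direction of the nearest gene (x axis, bp), for optimal promoter summits and the 5 strength groups of weak summits. The dip upstream of the summit is deepest at optimal summits, present in groups 1 and 2, and not visible in group 5, whose summits were 0.993 points above their flanks.

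The DRE (TATCGATA, its own reverse complement) was looked for on either strand up to 50 bp from each summit. It was found at 155 weak summits (2.88%, interval 2.47% to 3.36%) and in 31 windows of the same length 400 bp from them (0.576%). Optimal promoter summits had it in 68 (3.39%, 2.68% to 4.27%) and their flanks in 12, and pooled summits away from promoters in 33 of 17356 (0.190%). By strength group the share was 4.18%, 4.09%, 2.51%, 2.23% and 1.39%. Groups 1 and 2 were thus as high as the optimal promoter summits within counting error. In the own lists of replicates 1, 2 and 3 the DRE share was 3.20%, 2.44% and 2.28% outside and 4.18%, 3.30% and 3.83% at the optimal set, so the 2 ranges nearly touched. The means were 2.64% ± 0.495 (SD, n = 3) outside and 3.77% ± 0.444 at the optimal set (difference −1.13 points ± 0.369, lower in 3 of 3, exact sign permutation p = 0.25). The difference was −2.75 points when the search reached 100 bp from the summit and −0.606 when it reached 25 bp. It was −0.451 when only replicate summits at a weak or optimal summit of the pooled and optimal lists were counted. When only the strongest 10000 peaks of each replicate list were kept, the difference turned to 0.517 points (exact permutation p = 0.5).

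Motif 1, searched by its published consensus on both strands, was found at 78 weak summits (1.45%) and 13 of their flanks, and at 19 optimal promoter summits (0.946%) and 3 flanks. Group 1 of the weak summits had 27 (2.51%, 1.73% to 3.62%). In the replicates the difference was 0.197 points ± 0.177, positive in 2 of 3 (exact permutation p = 0.5), so no difference in motif 1 was shown. Core promoter motif 6 was found at 51 weak summits (0.948%) and 5 flanks, against 8 optimal promoter summits (0.398%) and 4 flanks. In the replicates its share was higher outside the optimal set in 3 of 3, by 0.209 points ± 0.151 (exact sign permutation p = 0.25). Motif 7 was found at 182 (3.38%) and 49 flanks, against 101 optimal promoter summits (5.03%) and 31 flanks.

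Short motifs rich in A and T were rarer at weak summits. The TATA box letters (TATAAA) were found at 14.9% of weak and 21.3% of optimal promoter summits, and the homeodomain core TAATTA at 6.65% and 10.46%. The GAGA letters (GAGAG), the site of the GAGA factor Trl, were found at 13.0% and 8.17%. In their flanks, weak summits had GAGAG in 12.47% and optimal ones in 13.6%, so the weak share was near its flank. For each of these 3 motifs, the difference between weak and optimal summits had the same sign in 3 of 3 replicates (exact sign permutation p = 0.25). From group 1 to group 5, the weak share fell from 17.5% to 13.5% for TATAAA and from 8.45% to 5.76% for TAATTA. Pooled summits of the same signal ranges away from promoters went from 21.1% to 13.1% and from 10.1% to 6.58%. These trends with strength were thus not particular to promoters.

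The weak summits reached 4426 protein-coding genes that had no optimal summit at a promoter, 31.7% of the 13945 genes on the 6 arms. A summit was counted for every gene with a TSS within 500 bp, so a summit at a shared promoter counted for each gene. Optimal summits reached 2674 genes, 19.2%. Of the 11271 genes without an optimal promoter summit, 39.3% had a weak one. Of the genes with an optimal promoter summit, 461 (17.2%) also had a weak summit at a promoter. Of these 461, 92.6% had several annotated starts and their median length was 10011 bp, against 3114 bp for all genes with an optimal summit.

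By structure, the 4426 genes with a weak summit alone lay between genes with an optimal summit and the 6845 with neither. Head-to-head genes made up 30.8% of them, 57.9% of genes with an optimal summit and 13.2% of genes with neither. Genes with several starts made up 35.2%, 42.3% and 14.8%, and the median gene length was 2996, 3114 and 1595 bp. A gene with several starts, a longer promoter territory or a divergent partner has more chances to be within 500 bp of a summit. This part was not corrected for. Among genes without an optimal summit, 60.1% of the 2268 head-to-head genes and 34.0% of the 9003 others had a weak summit.

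The promoters of these genes were also compared in a window at the same place for every gene, whether or not it had a summit. This 101 bp window was centred 44 bp upstream of the first start, the median position of the weak summits. The DRE was in 9.62% of windows of genes with a weak summit alone, 9.95% of those with an optimal summit, 3.23% of those with neither and 6.55% of all. Motif 1 was in 3.00%, 2.43%, 0.891% and 1.86%, and motif 7 in 5.99%, 10.4%, 1.81% and 4.78%. The TATA box letters went the other way, with 14.9%, 12.49%, 25.3% and 19.6%, and so did the initiator letters TCAGT, with 25.1%, 22.1%, 30.8% and 27.3%. For the DRE and the TATA box, genes with a weak summit alone were thus closer to genes with an optimal summit than to genes with neither. For motif 7 they were slightly closer to genes with neither. The window was placed by the weak summits and did not reach the median position of optimal promoter summits, −106, so the classes were not read on equal terms.

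These promoter differences were repeated when each replicate's own list set which genes had a weak summit. The DRE was in 8.93% ± 1.05 (SD, n = 3) of windows of genes with a weak summit alone and 3.68% ± 1.13 of those with neither, a difference of 5.25 points ± 2.17. The TATA box letters were in 16.2% ± 1.13 and 24.4% ± 1.44, a difference of −8.27 points ± 2.56. For head-to-head genes the difference was 14.9 points ± 3.90 and for genes with several starts 19.6 points ± 1.17. Each had the same sign in 3 of 3 replicates, with an exact sign permutation p = 0.25, or 0.3 after Benjamini-Hochberg adjustment over 18 comparisons. The share with GAGAG also differed in 3 of 3 (14.4% ± 0.290 and 12.48% ± 0.348), whereas the polypyrimidine initiator letters CTTTTC did not keep their sign (9.52% ± 0.265 and 9.62% ± 0.154).

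Chromosome 4, the small and largely heterochromatic fly chromosome, had many weak summits. Of its 80 genes, 12 had an optimal promoter summit and 51 a weak one alone. Among genes without an optimal summit, a weak one was at 51 of 68 on chromosome 4, 42.0% of 1836 on X and 38.5% of 9367 on the 4 large autosomal arms. In the own lists of replicates 1, 2 and 3 the chromosome 4 share was 82.4%, 61.8% and 57.4%, and that of the large arms 42.3%, 37.4% and 32.1%, both highest in replicate 1. The chromosome 4 mean was 67.2% ± 13.3 (SD, n = 3) and that of the large arms 37.3% ± 5.07, a difference of 29.9 points ± 8.84 with the same sign in 3 of 3. For X the difference was 1.98 points ± 1.74, also positive in 3 of 3, and both exact sign permutation tests gave p = 0.25. Copy number and mappability on chromosome 4 and X were not measured, and their part was not tested.

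Gene lists were read against the 39.3% of genes without an optimal promoter summit that had a weak one. The values below give how many genes of a list without an optimal summit had a weak one, and no list was tested. A summit shared with a neighbouring gene was counted for both genes. Examples are Taf6 and ash1, HtrA2 and mRpL11, and Hs6st and MED25, where the summit lay nearer the first gene. Ribosomal proteins stood high in both sets. Of 93 cytoplasmic ribosomal protein genes, 57 had an optimal summit, and 28 of the other 36 (77.8%) had a weak one, which leaves 8 with neither. The strongest were RpL10Ab, RpS2, RpL21 and RpL38, with pooled signals of 77.9, 76.5, 76.2 and 76.0. RpL10Ab ranked 7157, 3181 and 5996 in replicates 1, 2 and 3, and RpS2 ranked 3377, 3177 and 10300, whereas RpL21 had no match in replicate 1 and ranked 1936 and 2727 in the others. Of the 28, 17 were matched in all replicates.

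Other genes of the mitochondrion, of translation and of protein turnover had weak summits to differing degrees. Mitochondrial ribosomal proteins had a weak summit in 31 of 47 (66.0%), led by mRpL11, mRpS29, mRpL19 and mRpL13, and 15 of the 31 were matched in all replicates. Respiratory chain and ATP synthase genes had one in 37 of 67 (55.2%), led by ATPsynO, ND-AGGG, ND-30 and ATPsynC. Proteasome subunits had one in 21 of 39 (53.8%), led by Prosalpha7, Rpn13, Rpn8 and Prosalpha5, and only 9 of the 48 proteasome genes had an optimal summit. Aminoacyl-tRNA synthetases had one in 10 of 19 (52.6%), but only 1 of the 10 was matched in all replicates. In the own lists of replicates 1, 2 and 3 their share was 73.7%, 42.1% and 36.8%, against 43.2%, 37.7% and 32.5% for all genes. Translation factors, led by eIF2gamma and eEF1beta, had one in 16 of 36 (44.4%), not far above the background of 39.3%. With only the first start of each gene, the translation factor share was 41.7%, against 37.4% for all genes. Vacuolar ATPase subunits had one in 8 of 24 (33.3%), near the background, and in the replicates' own lists their share was 37.5% ± 14.4 (SD, n = 3) against 37.8% ± 5.33 for all genes. Heat shock proteins, led by Hsp22 and Hsc70-3, had one in 5 of 19 (26.3%).

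Genes of the transcription machinery had weak summits in 11 of 18 general transcription factors (61.1%), 9 of 15 Mediator subunits (60.0%) and 3 of 6 RNA polymerase II subunits. Taf6, Taf13, Taf11 and Taf3, which encode subunits of TFIID, were the strongest general factors. Polr2A, the gene of the largest polymerase subunit, had a pooled signal of 75.8 and ranked 4838, 9119 and 2828, whereas Polr2D and Polr2M had 22.0 and 19.3. The MED25 summit was the only one of the 9 Mediator summits matched in all replicates.

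Chromatin and cell cycle genes were among the lists with the most weak summits. Polycomb and trithorax group genes had one in 12 of 17 (70.6%), led by ash1 (the summit shared with Taf6), Pc, Psc and jing. Pc, which encodes the chromodomain protein Polycomb, ranked 7220, 4281 and 3883. Cell cycle regulators had one in 15 of 20, led by the APC/C activator genes fzr and fzy, the checkpoint kinase gene Bub1 and the CDK inhibitor gene dap, and 10 of the 15 were matched in all replicates. Insulator and architectural protein genes had one in 6 of 11 (54.5%), among them CTCF, Clamp, mod(mdg4) and Ibf2, and 5 of the 6 were matched in all replicates.

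Developmental signalling genes had many weak summits and no more optimal ones than genes at large. Of 32 developmental signalling genes, 6 (18.8%) had an optimal summit, near the 19.2% of all genes, and 21 of the other 26 (80.8%) had a weak one. The strongest were at tkv, a BMP receptor gene, arr, a Wingless co-receptor gene, pnt, an ETS factor gene of the EGFR pathway, and bnl, the gene of an FGF. The tkv summit held a DRE and ranked 4195, 18590 and 3375, the arr summit held motif 1 and ranked 3780, 4834 and 8322. Of the 21, however, 6 were matched in all replicates, with a median pooled signal of 39.3.

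Hox and segmentation genes had an optimal summit in 2 of 30 and a weak one in 13 of the other 28 (46.4%). The Hox gene Dfd had the strongest (pooled signal 67.1, ranks 5065, 16526 and 2711), and Scr (41.8), matched in replicate 1 alone, odd (38.5) and opa (37.8) followed. Both lists hold genes with more starts than average, a mean of 1.91 for signalling and 1.57 for Hox and segmentation genes against 1.41 for all genes. Some other lists did as well, among them cell cycle regulators (1.72) and cytoplasmic ribosomal protein genes (1.70). When only the first start of each gene was used, the weak share was 64.3% for signalling genes, 35.7% for Hox and segmentation genes and 37.4% for all genes without an optimal summit. It was 68.2% for cell cycle regulators and 77.8% for cytoplasmic ribosomal protein genes. With first starts only, the Hox and segmentation share was thus near that of all genes. In the replicates' own lists it varied widely, with 67.9%, 46.4% and 21.4% in replicates 1, 2 and 3, a mean of 45.2% ± 23.2 (SD, n = 3). The means were 66.7% ± 5.88 for signalling genes and 37.8% ± 5.33 for all genes.

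Few weak summits were found at chemoreceptor, cuticle, male germline, chorion and histone genes. Chemoreceptor genes had one in 13 of 178 (7.30%), and 1 of the 13 was matched in all replicates. That summit, at the carbon dioxide receptor gene Gr63a, lay head to head with Lamtor4 and held motif 1. Cuticle protein genes had one in 14 of 117 (11.97%), led by Cpr65Av, and no optimal summit in 117 genes. Genes of the male germline and seminal fluid had one in 5 of 63 (7.94%), none in all replicates, and 1 of the 5, Acp65Aa, encodes a cuticle protein in spite of its symbol. Chorion and yolk genes had one in 3 of 15, of which Cp110 is a centriole gene caught by the symbol pattern, and Cp36 and Vm26Aa had signals of 22.97 and 21.04.

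Histone genes had a weak summit in 3 of 114 (2.63%), and all 3 were single-copy genes outside the repeated histone cluster: His3.3B, His3.3A and His4r. Each was matched in all replicates, with ranks of 3345, 12165 and 9778 for His3.3B. The repeated copies in the cluster are nearly identical, so reads from them cannot be assigned to 1 copy and their lack of peaks is uncertain.

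**Figure D5:**
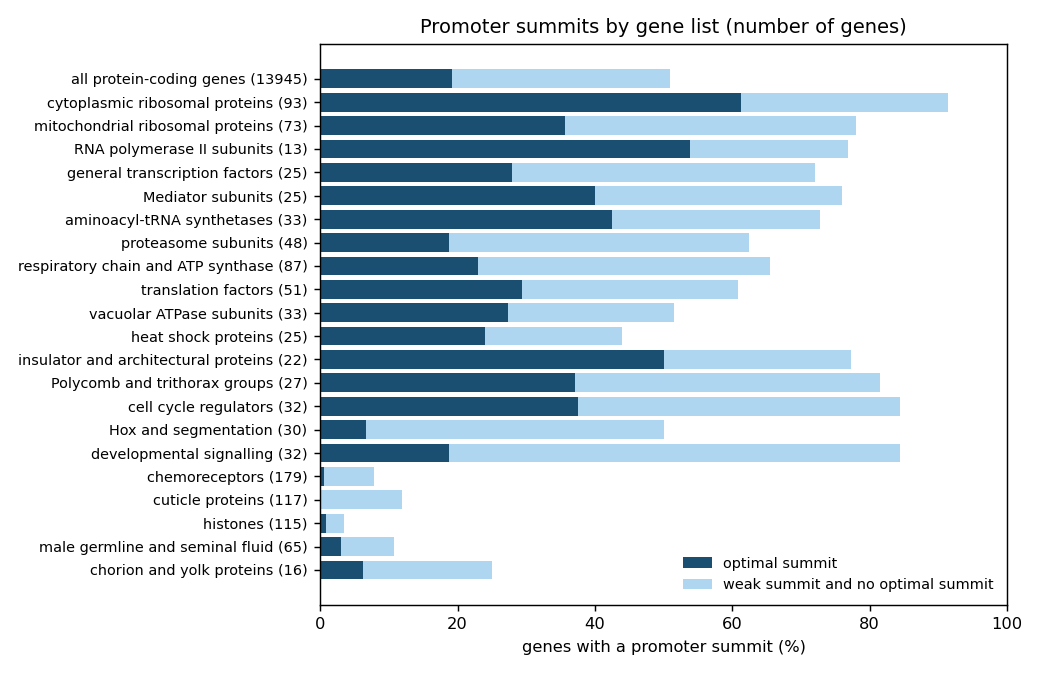
Percentage of genes (x axis) with an optimal promoter summit (dark) and with a weak promoter summit but no optimal one (light), for all protein-coding genes and 21 gene lists, with the number of genes in parentheses. Cytoplasmic ribosomal protein genes have the largest dark part (57 of 93 genes), developmental signalling genes the largest light part (21 of 32), and chemoreceptor, cuticle and histone genes have little of either.

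The pattern of replicate support went with architecture among the weak summits. The 1432 matched in all replicates were head to head in 21.5%, upstream in 75.8% and had a mean GC of 37.9%. The 930 matched in replicate 1 alone were head to head in 10.8%, upstream in 51.7% and had a mean GC of 42.4%. The 197 matched in no replicate had 9.14%, 51.3% and 42.1%, near the promoter base values of 6.74%, 44.6% and 42.9%. Support and pooled signal went together here (median signal 54.8 for the 1432, 24.7 for the 930 and 21.6 for the 197), so these shares are not separate from those by strength.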

How the data were processed

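ChIP-seq peaks of 3 biological replicates of CG12942-GFP embryos were used as deposited by the authors on dm6. Each list gives a signal value, deposited by the authors' peak caller, and the −log10 of a q value, deposited alongside it. Per the file listings deposited with the lists, each replicate list came from 1 alignment and a control, the pooled list from 3 alignments together, and the optimal list from IDR on these. No label or listing names the aligner or peak caller: these are not given in any source used here. Neither is the number of reads, so depth is unknown. Signal scales with depth and was compared within a list only. The replicate lists hold 30000, 30000 and 27870 peaks and include background by design. Signal tracks, the control and the dm3 lists were not analysed here.

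Summits were placed on the 6 arms against protein-coding TSSs of Ensembl release 115, whose assembly is that of dm6, and sequence was read from the RefSeq copy of the same assembly. Coordinates are 1-based. Summits within 200 bp were called matched. Head-to-head starts were divergent and at most 500 bp apart. The 13 motifs were consensus sequences, and the 21 gene lists were symbol patterns or symbols. 3 lists matched all but 1 of their symbols. Wilson intervals (95%) cover counting error only. Replicate differences were tested with the exact sign permutation test, two-sided, whose smallest p is 0.25 for 3 replicates. For 3 differences of the same sign this p is 0.25 whatever their size, so it does not measure the spread between replicates. All replicates are of 1 line. Where replicate lists were compared, a summit within 500 bp of an optimal summit was counted with the optimal set. This set was the same for all 3 lists, so the weak minus optimal differences of the replicates are not independent. Genes were named by rule: those at the 20 strongest summits matched in all replicates, the 5 weakest, up to 4 per list and those next to the limits. Windows for printing were the strongest or weakest with no exon in them, and 1 arm was not considered for printing. Names of genes outside this rule were chosen after their values were seen. The members, lists and named genes were chosen with earlier results of these data known. The functions were tested on simulated data. Python 3.11.15, numpy 2.4.6, pandas 2.3.3, scipy 1.17.1 and matplotlib 3.10.9 were used.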

Additional observations from a re-analysis of the deposited data

How the results depend on the processing

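Of 77 alternative values, 1 turned its direction and 19 shares or counts moved beyond their limits. The limits were wider for counts than for shares. With promoter windows of 250 and 1000 bp the weak summits numbered 3763 and 7783, against 5382, and were not counted as moved. The genes with a weak summit only, 3489 and 5171 against 4426, were not counted as moved either. Both counts thus depend on the promoter window. The head-to-head, upstream and GC differences kept their sign under all 34 of theirs, but not their size: the head-to-head difference was −9.51 points with pairs within 250 bp, and −18.8 to −26.2 in its other settings. The DRE difference turned to 0.517 points (exact permutation p = 0.5) when only the strongest 10000 peaks of each replicate list were kept, and kept its sign in its 11 others, from −2.75 points with a window of 100 bp to −0.451 with only replicate summits at a pooled weak or optimal promoter summit. With only the stronger part of the weak summits by pooled signal, the weak summits numbered 2691, the genes with a weak summit only 2714, and 48.6% of them were matched in all replicates. That share was 29.5% with a promoter window of 250 bp, 23.5% with 1000 bp, 28.4% with only the first TSS of each gene, 16.4% with matches within 100 bp and 39.99% within 500 bp. It was 78.8% in strength group 1 and 2.42% in group 5, settings chosen after seeing the data. Leaving out 1 replicate and asking for a match in both others gave 1877 to 2406 weak summits, 1919 to 2381 genes and a matched share of 34.9% to 44.7%, since fewer lists must hold the summit. No paired comparison between groups of samples was possible because the samples form 1 group and no second group shares their numbers. The weak minus optimal differences were taken within each replicate, with the same optimal set in all 3. Unknown depth and 3 replicates limit the precision: no exact test over them can reach p below 0.25.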
